A study of Mus musculus with 7 samples.

Results

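The genes for the proteins of the cytosolic ribosome were followed through 7 endpoint tumors of a mouse glioma model. They were taken as every symbol that starts with Rpl or Rps followed by a digit, plus Rplp0, Rplp1, Rplp2 and Rpsa. The S6 kinase genes and the symbols that contain -ps, a mark of pseudogenes, were left out. This gave 85 of the 19257 genes in the table. Of these, 45 code for proteins of the large subunit and 31 for proteins of the small subunit. The other 9 are paralogs or genes that share the symbol (Rpl3l, Rpl7l1, Rpl22l1, Rpl36al, Rpl37rt, Rpl39l, Rps4l, Rps27l and Rps19bp1). Of these, Rpl37rt and Rps4l are annotated as transcribed processed pseudogenes but were kept, since their symbols lack -ps. Rpl26 was not among the rows used here, and 5 entries with -ps in the symbol were left out. Of the 85 genes, 83 had a mean normalized count of at least 10 over the 7 libraries and entered the test.

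Tumors were started in the embryo by in utero electroporation of a single construct with Cas9 and guides whose targets include the tumor suppressors Trp53 and Nf1, on CD-1 and C57BL/6 backgrounds. Both groups received this construct, and the 4 GPC6 tumors (replicates 1 to 4) in addition overexpressed GPC6, a cell surface glypican, from a piggyBac transposon system that was also used for a GFP reporter, whereas the 3 3xCR tumors (replicates 2, 3 and 4) did not overexpress it. Which reporter each sequenced tumor carried is not given in the sources used here. Poly(A) RNA of fluorescent tumor tissue was sequenced with stranded libraries, each from the brain of another animal, and the ages at endpoint and the sex behind each library are not given in the sources used here. The question was how the tumors with GPC6 differed from those without it. Bulk tissue holds RNA of tumor cells and of the neurons, glia, vessels and blood-borne cells among them, so fewer cells of a type and less RNA per cell cannot be told apart.

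Libraries held between 7197692 reads on genes (GPC6 replicate 1) and 18879762 (3xCR replicate 2). Values are normalized counts, that is reads divided by the library's size factor, and they are listed throughout in the order 3xCR replicates 2, 3 and 4, then GPC6 replicates 1, 2, 3 and 4. Gpc6 itself had 217, 226 and 126 in the 3xCR tumors and 675, 263, 3434 and 5084 in the GPC6 tumors. The GPC6 tumors were thus all above the 3xCR tumors, but GPC6 replicate 2 was only just so. GPC6 replicate 1 stood apart from the rest in several gene lists below, and the counts and medians of the members and of the lists that it moves most are given with and without it. The glial genes Gfap and Olig1 were high in every library, with Gfap between 7310 and 30392 and Olig1 between 4521 and 20310. Other genes of brain cells were low in some libraries. The neuronal gene Rbfox3 ran from 13.8 in 3xCR replicate 4 to 2836 in GPC6 replicate 1, and the astrocyte gene Gjb6 from 18.0 to 1354 in the same tumors.

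A ribosome pairs a small subunit, which binds the messenger RNA and reads its codons, with a large subunit, which joins the amino acids. Both are built in the nucleolus from ribosomal RNA and one copy of nearly every ribosomal protein, so cells make these proteins in matched amounts. Their messenger RNAs are among the most abundant of a growing cell. They typically begin with a C followed by a run of C and T, the terminal oligopyrimidine (TOP) tract, through which mTOR signalling and the binding protein LARP1 control their translation together.

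The TOP tract is known from many of these genes, and it was looked for around the start sites that RefSeq annotates on GRCm38.p6. A tract was counted where a C followed by at least 5 C or T began within 5 bases of the start, on the strand of the gene. Of the 85 genes 64 had a promoter entry, and 25 of these held such a tract (39.1%), against 10.2% of all 27025 promoters in the table. The share was 39.4% of 33 large subunit genes, 47.8% of 23 small subunit genes and 12.5% of 8 paralogs and related symbols. With a C exactly at the annotated start followed by at least 4 C or T the share was 18.8%, against 2.49% of all promoters. A match describes these letters only. Start sites in the annotation can lie some bases from the one used in a tumor, and no start sites were measured here.

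The windows below hold 10 bases before the annotated start and the first 20 bases from it, 5′ to 3′ on the strand of the gene, with the tract in capitals. The first 4 show the tract in genes of both subunits, Rpl13a (chr7:45128726-45128755, minus strand), Rplp2 (chr7:141447641-141447670, plus strand), Rps6 (chr4:86857348-86857377, minus strand) and Rps18 (chr17:33955646-33955675, minus strand).
Rpl13a: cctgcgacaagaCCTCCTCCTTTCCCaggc
Rplp2: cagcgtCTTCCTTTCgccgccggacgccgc
Rps6: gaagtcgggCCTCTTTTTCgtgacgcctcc
Rps18: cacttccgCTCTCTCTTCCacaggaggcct

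Within single pairs the tract could lie in either gene. The next 6 windows set canonical genes beside their paralogs, Rpl22 (chr4:152325716-152325745, plus strand) beside Rpl22l1 (chr3:28805498-28805527, plus strand), Rps27 (chr3:90213629-90213658, minus strand) beside Rps27l (chr9:66946076-66946105, plus strand), and Rpl36a (chrX:134585644-134585673, plus strand) beside Rpl36al (chr12:69184048-69184077, minus strand). Rpl22l1 had a tract and Rpl22 had none, Rps27 had one and Rps27l had none, and neither gene of the Rpl36a pair had one.
Rpl22: cctgggaaaagcaatagctggccgatcgtt
Rpl22l1: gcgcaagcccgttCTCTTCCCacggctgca
Rps27: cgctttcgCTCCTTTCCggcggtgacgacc
Rps27l: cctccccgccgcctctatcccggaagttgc
Rpl36a: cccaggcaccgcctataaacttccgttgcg
Rpl36al: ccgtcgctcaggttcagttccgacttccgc

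Together the 85 genes took a large part of each library, and a variable one. Their share of the reads on genes was 5.73%, 7.32% and 8.43% in the 3xCR tumors and 2.93%, 4.78%, 5.53% and 7.94% in the GPC6 tumors. The means were 7.16% ± 1.36 (SD, n = 3) and 5.30% ± 2.07 (SD, n = 4). The groups overlapped, since GPC6 replicate 4 lay above 3xCR replicates 2 and 3. Wilson 95% intervals of the shares reached at most 0.0189 percentage points to either side and cover counting error only, so the spread within each group was many times wider than counting error. Among the 100 most abundant genes of a library 24, 34 and 38 were ribosomal protein genes in the 3xCR tumors and 2, 16, 25 and 37 in the GPC6 tumors.

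**Figure D1:**
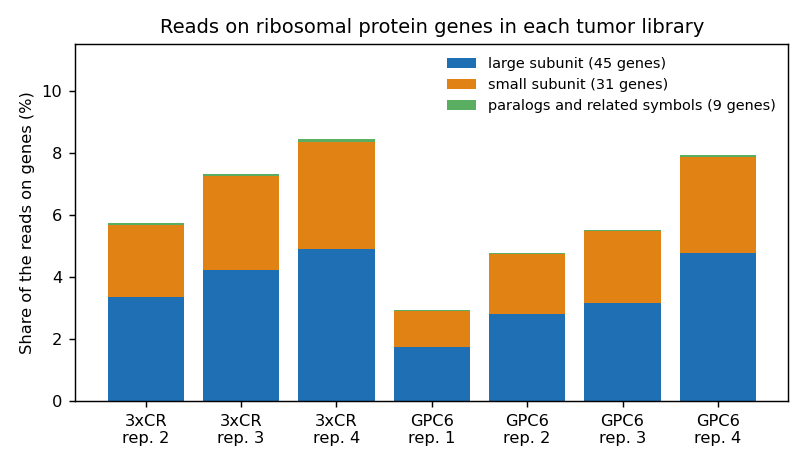
Share of the reads on genes (percent, y axis) that fell on large subunit genes, small subunit genes and the paralogs and related symbols, as stacked bars, 1 bar per library. The share ran from 2.93% in GPC6 replicate 1 to 8.43% in 3xCR replicate 4, and the bar of GPC6 replicate 4 (7.94%) stands among those of the 3xCR tumors.

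Both subunits kept nearly the same proportion in every tumor. The summed normalized counts of the large subunit genes were 1.46, 1.40 and 1.42 times those of the small subunit genes in the 3xCR tumors and 1.49, 1.45, 1.37 and 1.53 times in the GPC6 tumors. The lowest and the highest ratio both came from GPC6 tumors.

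Levels of different genes can be compared only per length, here as normalized counts per kilobase of all annotated exons. This length joins the exons of all annotated transcripts, so it can exceed that of the RNA present. It was 499 bases for Rplp1 and 630 for Rps15 but 6256 for Rps24 and 6270 for Rps15a. Which transcripts the tumors held was not measured, so the order below depends on the annotation. On this scale the highest means over the 7 libraries were those of Rplp1 (27374 per kilobase), Rplp0 (15509), Rps15 (14412), Rpl19 (14201) and Rps3a1 (13310). Rplp0 and Rplp1 belong to the stalk through which the large subunit recruits translation factors. The lowest canonical genes were listed far below these, namely Rpl30 with 9.50 per kilobase, Rps27 with 20.3 and Rpl34 with 21.2. The next lowest of the 76 canonical genes, Rps15a with its 6270 annotated bases, had 988. Ribosomal protein genes have many near-identical processed copies in the genome and the rule for reads that match several genes is not stated, so the level of any single member is uncertain, and for these 3 the table holds mean normalized counts of only 28.7, 21.1 and 55.9.

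Compared between the groups, all 83 tested genes had a lower mean log2 value in the GPC6 tumors, and none of them passed the test. Over all genes tested 51.7% were lower. The median log2 fold change of the members, GPC6 over 3xCR on log2(normalized count + 1), was -0.53, against -0.019 over all 14782 genes and -0.030 over the 2325 other genes with a mean of at least 1000, of which 53.2% were lower. The ratio of the group means had a median of 0.717 and ran from 0.477 to 1.01. The standard errors of the log2 fold changes had a median of 0.36, against the median difference of -0.53. With limma and Benjamini-Hochberg adjustment 0 of the 83 genes, and 0% of all genes, had an adjusted p under 0.05, the lowest of the members being 0.730. Without adjustment, limma gave a p under 0.05 for 3 lower members (Rpl36al, Rps14 and Rpl13a), where 1.92% of all genes were lower at that level, and for 0 higher members, where 2.74% of all genes were higher. On the recovered reads edgeR and DESeq2 called 0 members as well, with 5 and 8 members lower at an unadjusted p under 0.05, where 2.95% of all genes were lower at that level with either tool.

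The size of this shift depended on single libraries and on gene length. Without GPC6 replicate 1 the median log2 fold change of the members was -0.32 with 79 of 83 lower and 0 at an unadjusted p under 0.05. Without GPC6 replicate 4 it was -0.74 with 83 lower and 33 at an unadjusted p under 0.05, where 2.68% of all genes were lower at that level in the same fit. Without 3xCR replicate 2 it was -0.72 with 10, where 3.41% of all genes were. Without 3xCR replicate 4 it was -0.41 with 0. Leaving out GPC6 replicate 2, whose Gpc6 count was close to those of the 3xCR tumors, gave -0.53. Xist, an RNA of the inactive X chromosome of females, was at 1.55 and 4.94 in GPC6 replicates 1 and 2. In the other tumors it was at 1461 to 3967, so sex and group cannot be told apart for any member. With the trend of the values on exon length removed in each library, the median was -0.33 with 76 lower. Short genes that are not members lay in the same direction, as the 180 other genes with a mean of at least 1000 and at most 1739 exon bases had a median of -0.29 with 81.1% lower, and the 2092 longer ones had -0.0077 with 50.5% lower. Within the members the short and the long differed little, with a median of -0.51 for the 36 abundant members up to that length and -0.56 for the 39 longer ones. These lengths join all annotated exons and can exceed those of the RNA present.

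**Figure D2:**
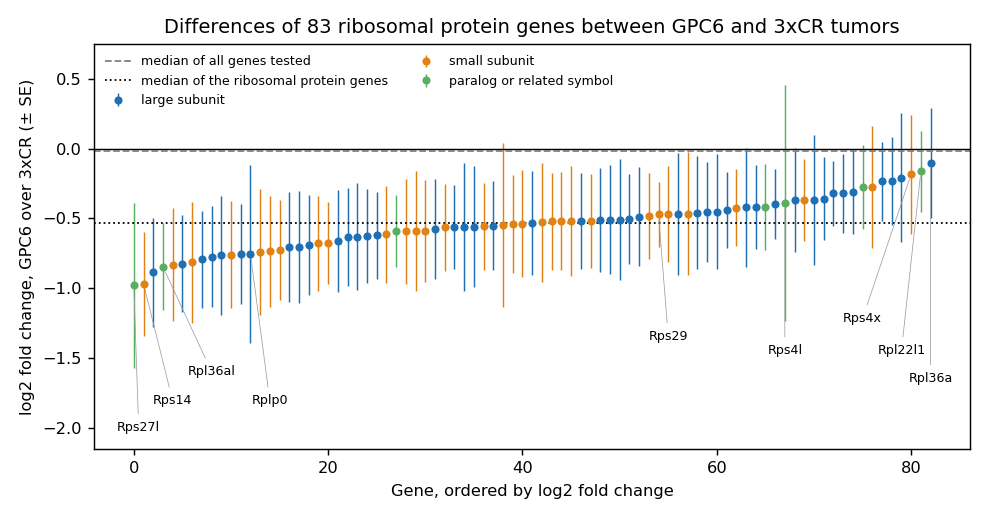
log2 fold change of GPC6 over 3xCR tumors (y axis, points, with the limma standard error as bars) for the 83 tested genes in order of size (x axis), colored by class. All points lie below 0, from -0.98 for Rps27l to -0.10 for Rpl36a, and the dotted line marks their median of -0.53 beside the dashed line at -0.019 for all genes.

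The order of the tumors was similar for most genes. For the median member it followed the groups apart from GPC6 replicate 4, which lay within the 3xCR range. Relative to each gene's own mean, the median member lay at -0.035, 0.35 and 0.60 on the log2 scale in the 3xCR tumors and at -0.90, -0.27, -0.16 and 0.37 in the GPC6 tumors. The lowest value was in GPC6 replicate 1 for 75 of the 83 genes. The highest was in 3xCR replicate 4 for 60 and in GPC6 replicate 4 for 18. Each of these 18 had more in GPC6 replicate 4 than in any 3xCR tumor, whereas GPC6 replicates 1, 2 and 3 lay below all 3xCR tumors for 80, 78 and 57 genes. Taking the members' median in each library off each gene removed 73.8% of their sum of squares, and lowered the median SD over the libraries from 0.55 to 0.20 on the log2 scale. Done with its own median, the large subunit lost 85.6% and the small subunit 79.8%, but the 7 tested paralogs and related symbols only 20.3%. The canonical genes thus moved from tumor to tumor nearly in parallel, and the paralogs and related symbols as a set moved together less. Genes of wide spread weigh most in such a sum of squares, such as Rps4l with 23.5 to 257 normalized counts. Rpl7l1 departed from the median member by an SD of only 0.18.

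**Figure D3:**
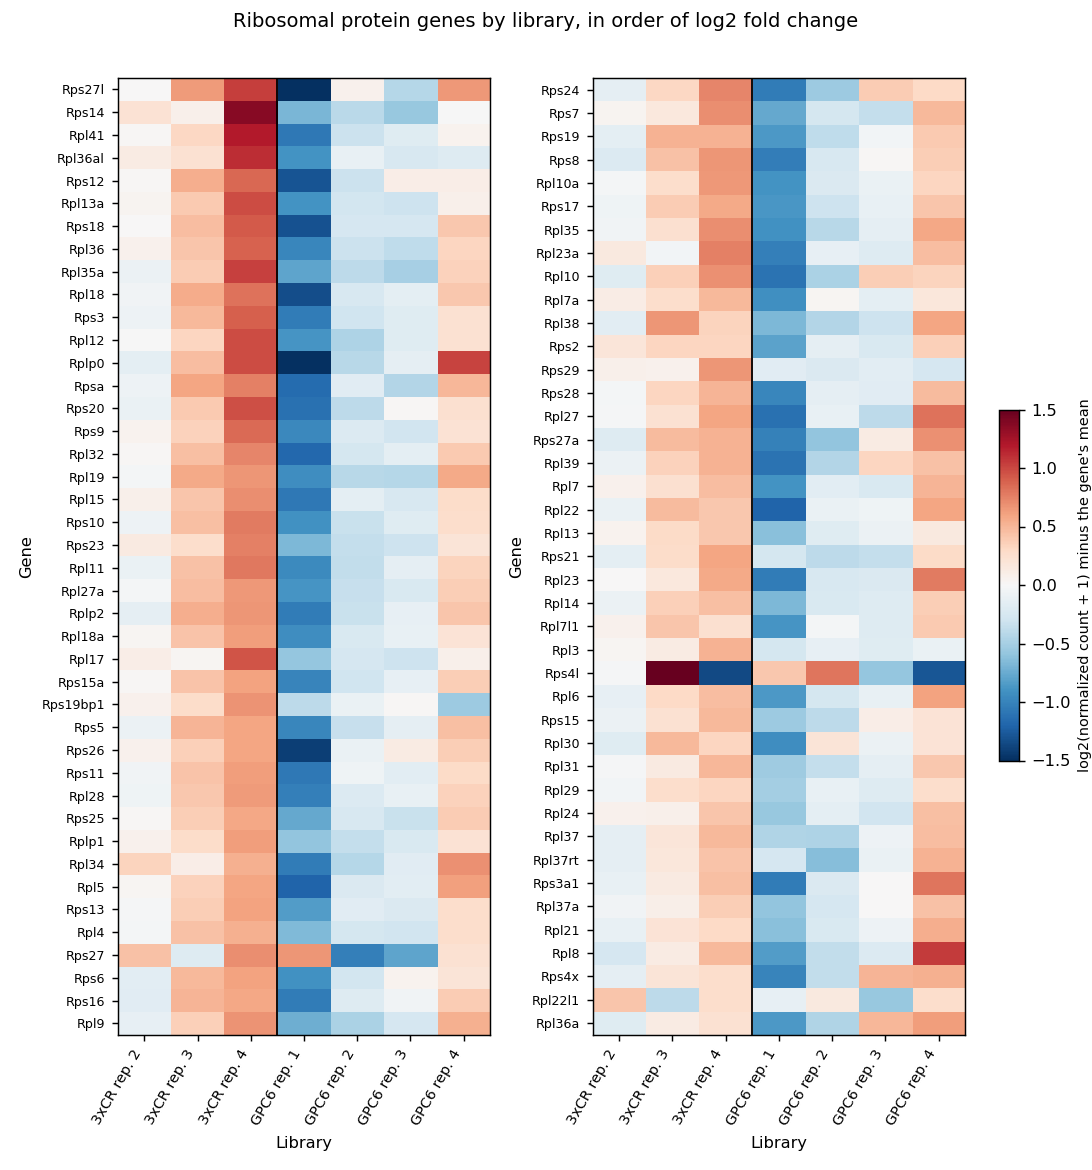
Color gives log2(normalized count + 1) relative to the average of the gene in all 7 libraries, for each of the 83 tested genes (rows, in order of log2 fold change) and each library (columns, 3xCR left of the line). Most rows are darkest blue in GPC6 replicate 1 and darkest red in 3xCR replicate 4, and most are red again in GPC6 replicate 4. The color scale is capped, so the darkest cells can lie beyond its ends.

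Markers of other cell types and states also differed between the libraries, and their part in the result was not tested. The 27 proliferation genes had summed normalized counts of 13889 to 27912 in the 3xCR tumors and 2552 to 31788 in the GPC6 tumors, with the lowest in GPC6 replicate 1 and the highest in GPC6 replicate 4, the lowest and the highest member level of that group. In the remaining tumors the order differed from that of the members, as 3xCR replicate 4, highest for most members, had a sum of 17085, and GPC6 replicate 2 had 21164. All 27 had a lower mean in the GPC6 tumors (median log2 fold change -0.52) and 0 an adjusted p under 0.05 by limma, with 0 at an unadjusted p under 0.05. That direction rested on GPC6 replicate 1, without which 24 of the 27 were higher, with a median of 0.29. The 15 pan-neuronal genes ran the other way, with sums of 10123 to 16864 in the 3xCR tumors and 14273 to 79851 in the GPC6 tumors. Their highest sum was in GPC6 replicate 1 and their lowest in 3xCR replicate 4, where the members were highest. All 15 were higher in the GPC6 tumors, none at an adjusted p under 0.05 by limma and 3 at an unadjusted p under 0.05, and 14 were higher without GPC6 replicate 1, where the median log2 fold change went from 1.63 to 1.01. Snap25, a protein of synaptic vesicle release, had 1440, 681 and 126 against 20138, 708, 7469 and 2490.

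Immune, choroid plexus and oligodendrocyte genes set some of the same tumors apart. The 9 T cell genes summed to 1999 in 3xCR replicate 4 and to 565 at most in the other 6 tumors. The 10 macrophage and monocyte genes summed to 35440 there, against 742 in GPC6 replicate 1, where Arg1 was at 0. The microglial gene Fcrls was at 0 in GPC6 replicate 1 as well. Of the 10 microglial genes 9 were lower in the GPC6 tumors, 3 of them at an unadjusted p under 0.05, with sums of 12642 to 16534 in the 3xCR tumors and 8238 to 11467 in the GPC6 tumors. The 10 choroid plexus genes summed to 12829 in GPC6 replicate 1 and to 3910 at most in the other 6 tumors, with Ttr at 11813 in GPC6 replicate 1, and 4 of the 10 were at 0 in at least 1 library. The 10 oligodendrocyte genes summed to 67894 to 85910 in the 3xCR tumors and to 107005, 114572, 25723 and 16081 in the GPC6 tumors. No defining gene of the neuronal, oligodendrocyte, proliferation or T cell list was at 0 in any library.

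**Figure D4:**
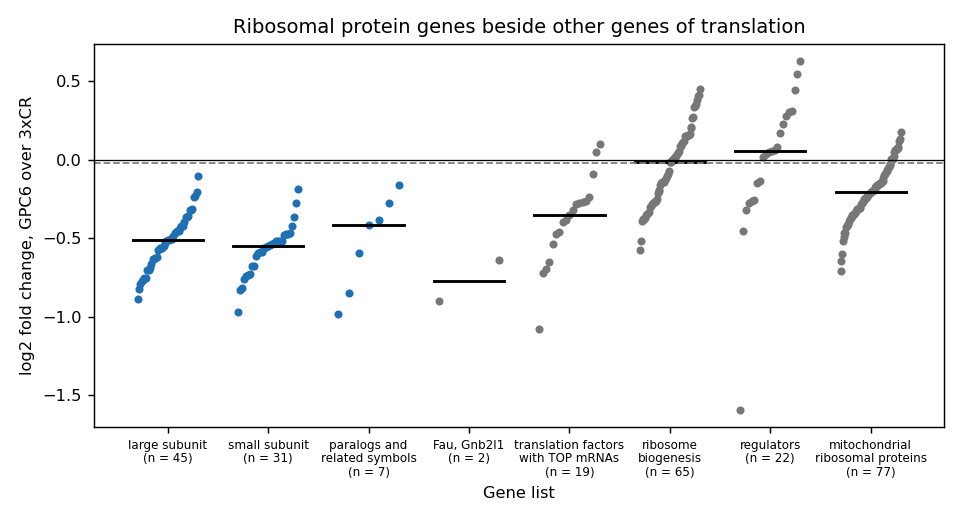
log2 fold change of GPC6 over 3xCR tumors (y axis) for each tested gene of 8 lists (x axis), with members in blue, other lists in grey, the median of a list as a black bar and the median of all genes as a dashed line. The medians were -0.51 and -0.55 for the subunits, -0.42 for the paralogs and related symbols, -0.35 for the list of translation factors, -0.21 for mitochondrial ribosomal proteins, and close to 0 for ribosome biogenesis and for regulators.

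Among the 45 large subunit genes the median log2 fold change was -0.51, and 1 of them (Rpl13a) had an unadjusted p under 0.05 by limma. Of all genes 1.92% were lower at that level. Rpl13a, which is released from the ribosome of interferon-treated cells to silence selected messages, had 12681, 16240 and 24219 normalized counts in the 3xCR tumors and 6600, 10192, 9897 and 12997 in the GPC6 tumors. Only GPC6 replicate 4 reached into the 3xCR range. Its log2 fold change was -0.82 ± 0.35 (SE; limma unadjusted p = 0.046, Benjamini-Hochberg adjusted p = 0.730). Rpl41, the smallest ribosomal protein, had 9401, 11553 and 21227 against 4431, 7457, 8196 and 9659, again with 1 overlapping tumor (log2 fold change -0.89 ± 0.39). Rpl3, which shapes the site where amino acids are joined, was the only large subunit gene whose groups did not overlap, at 12831, 13740 and 18038 against 10435, 11527, 11051 and 11749. Its log2 fold change was -0.40 ± 0.25, and the 4 GPC6 tumors differed little from each other (SD 582).

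The log2 fold changes of the stalk proteins lay within their standard errors of each other. Rplp0 had 19783, 30231 and 42970 in the 3xCR tumors and 6438, 16470, 19980 and 44234 in the GPC6 tumors, the widest span of the stalk. It was thus both lowest and highest in GPC6 tumors, and its log2 fold change of -0.75 had a standard error of 0.64 and was -0.27 without GPC6 replicate 1. Rplp1 had 13732, 16012 and 20326 against 8714, 10305, 11248 and 15280 (-0.56 ± 0.30), and Rplp2 had 5468, 8787 and 9550 against 2914, 4785, 5534 and 8007 (-0.63 ± 0.38).

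Rpl5 and Rpl11 carry the 5S ribosomal RNA and, when ribosome assembly fails, bind the p53 regulator MDM2. Rpl5 had 12580, 15619 and 18524 in the 3xCR tumors against 5370, 10580, 11083 and 18875. Rpl11 had 7776, 11314 and 14343 against 4283, 6433, 7545 and 10484. Both followed the common order, with GPC6 replicate 1 lowest and GPC6 replicate 4 within or above the 3xCR range, and their log2 fold changes were -0.56 ± 0.43 and -0.66 ± 0.37. Rpl38, known for its part in the translation of Hox messages, had its highest value in 3xCR replicate 3, at 3386, 5974 and 4753 against 2376, 2776, 3047 and 5690 (-0.49 ± 0.35). Rpl19, one of the 5 highest per length, had 13147, 20008 and 21354 against 7065, 10112, 10017 and 19887 (-0.70 ± 0.40).

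At the other end of the large subunit lay Rpl36a and Rpl8. Rpl36a had 3043, 3755 and 4022 in the 3xCR tumors and 1893, 2525, 4859 and 5325 in the GPC6 tumors. GPC6 replicates 3 and 4 exceeded every 3xCR tumor while replicates 1 and 2 lay below them, and the log2 fold change was -0.10 ± 0.39, which turned positive on the recovered reads (0.0054 with edgeR and 0.025 with DESeq2). Rpl8 had 8816, 11391 and 14696 against 5872, 8098, 9127 and 21783, so that a single tumor held its highest value (-0.21 ± 0.46). Without GPC6 replicate 1 both were above 0, at 0.17 for Rpl36a and 0.042 for Rpl8.

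Among the 31 small subunit genes the median was -0.55, and 1 (Rps14) had an unadjusted p under 0.05 by limma, where 1.92% of all genes were lower at that level. Rps14, the gene whose loss underlies the anemia of a human deletion syndrome, had 10729, 9761 and 23958 normalized counts in the 3xCR tumors against 5771, 7001, 6252 and 9232 in the GPC6 tumors. The groups did not overlap, but the mean of the 3xCR tumors rested on 3xCR replicate 4, which held more than any pair of GPC6 tumors together. The log2 fold change was -0.97 ± 0.37 (limma unadjusted p = 0.033, Benjamini-Hochberg adjusted p = 0.730), the lowest of the canonical genes. Rps29, a zinc-binding protein of the subunit, also had separate groups, at 6240, 6216 and 9366 against 5255, 5076, 5302 and 4977. The 4 GPC6 tumors agreed within an SD of 152, and 2 of the 3xCR tumors lay just above them (-0.47 ± 0.23).

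Rps12 had 8100, 11700 and 14602 against 3261, 6434, 8581 and 8571 (-0.83 ± 0.41), and Rps23, a protein of the decoding site, had 8535, 9296 and 13058 against 4849, 6034, 6252 and 8833 (-0.67 ± 0.29; limma unadjusted p = 0.050). In both genes at least 1 GPC6 tumor reached the lower part of the 3xCR range. Rpsa, which is also known as the laminin receptor, had 18488, 29531 and 33097 against 8775, 17371, 14412 and 27684 (-0.74 ± 0.45). Rps6, whose phosphorylation by S6 kinase is a common readout of mTOR signalling, had 8562, 13381 and 14525 against 5102, 7913, 9908 and 10963 (-0.54 ± 0.35). Rps19, the gene most often mutated in Diamond-Blackfan anemia, had 6081, 9684 and 9705 against 3723, 5170, 6564 and 8889 (-0.52 ± 0.35).

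Rps27a, made as a fusion with ubiquitin, had 8148, 13012 and 13362 in the 3xCR tumors against 4620, 6196, 10174 and 15025. It thus spanned both ends of the table in the GPC6 tumors, with a log2 fold change of -0.47 ± 0.44. Rps15, one of the 5 highest per length, had 8338, 10322 and 12408 against 6048, 6760, 9461 and 10220 (-0.37 ± 0.29). The smallest differences of the subunit were those of Rps4x, with 11218, 14139 and 14803 against 6206, 9547, 17649 and 17957 (-0.18 ± 0.43), and Rps3a1, with 11263, 13364 and 16625 against 5890, 10463, 12218 and 21201 (-0.27 ± 0.44). In each of them at least 1 GPC6 tumor held the highest value of all, and both turned positive without GPC6 replicate 1, at 0.12 and 0.038.

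Of the 83 tested genes, 5 had every GPC6 tumor below every 3xCR tumor (Rps14, Rpl36al, Rps19bp1, Rps29 and Rpl3), where 3.52% of all genes did. In the other direction there were 0, where 2.8% of all genes had every GPC6 tumor above. The count of 5 became 54 without GPC6 replicate 4, where 7.76% of all genes had every remaining GPC6 tumor below, and 42 without 3xCR replicate 2, where 10.6% did. These are the tumors whose members lay nearest to the other group. GPC6 replicate 4 lay below all 3xCR tumors for these 5 genes and for no other member.

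As a set, the paralogs and related symbols followed the common order of the tumors less closely than the canonical genes. Rpl36al, which lies outside the X chromosome that carries Rpl36a and codes for a nearly identical protein, had 1662, 1794 and 3289 in the 3xCR tumors against 822, 1413, 1292 and 1338. The groups did not overlap, and the log2 fold change was -0.85 ± 0.31 (limma unadjusted p = 0.027, Benjamini-Hochberg adjusted p = 0.730). The ratio of Rpl36al to Rpl36a within a library, which the size factor cannot move, was -0.87, -1.07 and -0.29 on the log2 scale in the 3xCR tumors and -1.20, -0.84, -1.91 and -1.99 in the GPC6 tumors. GPC6 replicate 2 lay within the 3xCR range, so the ratios overlapped.

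Rps27l, a p53-inducible paralog of Rps27, had the lowest log2 fold change of all members (-0.98 ± 0.59), with 676, 1049 and 1381 against 172, 703, 501 and 1058. The low mean of the GPC6 tumors rested on GPC6 replicate 1, without which the log2 fold change was -0.46. Rps27 itself had 26.3, 16.7 and 31.8 against 30.9, 8.89, 10.6 and 22.6 (-0.55 ± 0.59), too few to form a ratio. Rpl22l1, which can take the place of Rpl22 in the ribosome, had 1273, 724 and 1141 against 873, 1055, 643 and 1148 (-0.16 ± 0.29), while Rpl22 had 3541, 5259 and 5007 against 1645, 3544, 3627 and 5720 (-0.45 ± 0.41). Their log2 ratio was -1.48, -2.86 and -2.13 in the 3xCR tumors and -0.91, -1.75, -2.49 and -2.32 in the GPC6 tumors. The order of the tumors for Rpl22l1 was not that of the other members, and its highest value was in 3xCR replicate 2.

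Rpl7l1, a protein of ribosome assembly related to Rpl7, had 1386, 1761 and 1564 against 719, 1295, 1153 and 1741 (-0.42 ± 0.30). Its log2 ratio to Rpl7 stayed between -3.34 and -2.95 in all 7 tumors. Rps19bp1 is no ribosomal protein but a nucleolar protein that binds RPS19, and it had 253, 293 and 385 against 184, 225, 245 and 166 (-0.59 ± 0.26), with no overlap between the groups. Rpl37rt had 761, 938 and 1123 against 699, 533, 776 and 1194 (-0.28 ± 0.30). Rps4l had 60.8, 257 and 23.5 against 81.9, 109, 40.8 and 24.7 (-0.39 ± 0.85). Its highest and its lowest value were both in 3xCR tumors, and without 3xCR replicate 3 the log2 fold change was 0.52.

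Paralogs that are known for muscle and for testis were at the floor of the data. Rpl3l, the striated muscle paralog of Rpl3, had 6, 2 and 3 reads in the 3xCR tumors and 2, 1, 2 and 1 in the GPC6 tumors. Rpl39l, known from the testis, had 0, 2 and 1 reads against 0, 1, 10 and 0. A count of 0 reads allows up to 1.64 to 4.64 normalized counts in these libraries, so absence cannot be told from a level below that.

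The X-linked members (Rpl10, Rpl36a, Rpl39 and Rps4x) departed from the other members in a single tumor. Relative to the median member of the same library, GPC6 replicate 3 held 0.67 more of Rps4x, 0.66 more of Rpl36a, 0.53 more of Rpl10 and 0.48 more of Rpl39 on the log2 scale. In the other 6 tumors these genes lay between -0.38 and 0.26. The 362 other genes of the X chromosome with a mean of at least 100 lay 0.40 above the median of such genes in GPC6 replicate 3, and 0.30 below it in 3xCR replicate 4, where the median X-linked member lay 0.21 below the other members. Rpl39, which lines the tunnel through which the new protein leaves the ribosome, had 4893, 6616 and 7461 against 2410, 3832, 6478 and 7071. Xist, the RNA that coats the inactive X chromosome of females, had 3333, 3967 and 2750 in the 3xCR tumors and 1.55, 4.94, 1461 and 2902 in the GPC6 tumors. Sex and group thus cannot be told apart in the comparison of the groups, for X-linked members and for the others.

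Departures of this kind followed other chromosomes too. In GPC6 replicate 4 the members on chromosome 12 lay at -0.62 (Rps29), -0.56 (Rpl36al) and 0.12 (Rps7), where the 374 other genes of that chromosome had a median of -0.36. On chromosome 3 of the same tumor the other genes lay at 0.47, with Rps3a1 at 0.43 and Rpl22l1 at -0.10. On chromosome 11 the other genes had a median of 0.20 and the 6 members 0.27, and on chromosome 5 they had 0.22 and 0.20. Among the 133 pairs of a chromosome and a library with members, the other genes departed by at least 0.2 in 7, and in 6 of these the members had the same sign. Rps29 and Rpl36al are also among the 5 genes without overlap. Lack of overlap requires GPC6 replicate 4 to lie below the 3xCR tumors, so a low level relative to the other members there follows from that choice. The rest of the 5, on chromosomes 15 and 18, were low in that tumor as well, at -0.91 (Rps19bp1), -0.47 (Rpl3) and -0.38 (Rps14). The copy number of these chromosomes was not measured. The choice of these comparisons, and of Rpl10 and Rps7, was made with their values in view.

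**Figure D5:**
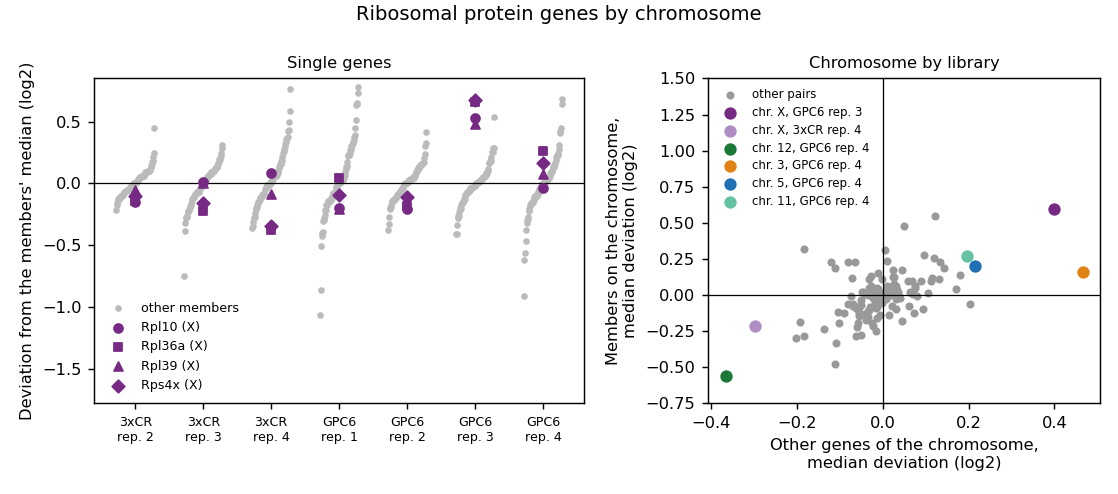
Left, deviation of each member from the median member of its library (log2, y axis) in the 7 libraries (x axis), with the X-linked genes in purple and the others in grey. Right, median deviation of the members on a chromosome (y axis) against that of the other genes on it (x axis), 1 point per chromosome and library; the purple points of GPC6 replicate 3 lie above nearly all grey points on the left and at 0.40 on the x axis on the right.

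Other genes of translation and of the ribosome were set beside the members. Fau and Gnb2l1 (the listed symbol of Rack1) code for ribosomal proteins under other names, and both were lower in the GPC6 tumors. Fau had 6274, 6308 and 10609 against 4626, 4839, 4943 and 4839 with no overlap (-0.64 ± 0.25; limma unadjusted p = 0.037, Benjamini-Hochberg adjusted p = 0.730). Gnb2l1, a signalling scaffold on the small subunit, had 13632, 24582 and 27264 against 5059, 10694, 11040 and 26275 (-0.90 ± 0.56), and without GPC6 replicate 1 its log2 fold change was -0.52. A further list holds 19 translation factors and related genes that are known for TOP messages, although by the rule above a tract was found in only 4 of the 13 with a promoter entry (30.8%). Of the 19 genes 17 were lower, with a median of -0.35 and 2 of them at an unadjusted p under 0.05, and without GPC6 replicate 1 there were 14 lower with a median of -0.24. Tpt1 stood at one end, with 27187, 29899 and 41124 against 9262, 21669, 12763 and 21330 (-1.08 ± 0.40), and Nap1l1 at the other (0.10 ± 0.30). Eef1a1, the elongation factor and the most abundant gene of the list, had 112993, 121329 and 157857 against 51785, 95551, 78380 and 104821 (-0.70 ± 0.50).

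Ribosome biogenesis genes were split between both directions. Of the 65 genes 35 were lower and 30 higher, with a median of -0.015, from Emg1 (-0.57 ± 0.38) to Gnl3l (0.45 ± 0.28), and nucleolin (Ncl), the highest of them, was at -0.013. Their mean level over the list was nevertheless lowest in GPC6 replicate 1 and highest in GPC6 replicate 4 (-0.65 and 0.62 relative to each gene's mean), and without GPC6 replicate 1 the median was 0.15 with 50 of the 65 higher. The 22 regulators had a median of 0.054, with 14 higher and 8 lower, and without GPC6 replicate 1 it was 0.11 with 15 higher. They ran from Eif4ebp1, the translation repressor that mTOR inactivates, at 445, 786 and 1805 against 89.6, 185, 672 and 582 (-1.59 ± 0.78), to Tsc1, a brake on mTOR, at 405, 357 and 278 against 862, 430, 520 and 407 (0.63 ± 0.31). None of the genes in either list had an unadjusted p under 0.05 by limma. Of the 77 mitochondrial ribosomal protein genes 64 were lower, with a median of -0.21, from Mrpl52 (-0.71 ± 0.27) to Mrps5 (0.18 ± 0.24), and 1 had an unadjusted p under 0.05. Without GPC6 replicate 1 there were 56 lower, with a median of -0.11.

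The ribosomal RNA precursor Rn45s differed more between the groups than the protein genes did, although poly(A) selection is meant to remove it. It had 260634, 293792 and 302419 normalized counts in the 3xCR tumors and 154424, 100566, 97829 and 92933 in the GPC6 tumors, and took 2.52%, 2.79% and 2.63% of the reads in the former and 1.39%, 0.963%, 0.972% and 0.914% in the latter. The groups did not overlap, and within the GPC6 tumors the highest value was in replicate 1, where the protein genes were lowest. The log2 fold change was -1.39 ± 0.56 (limma unadjusted p = 0.039, Benjamini-Hochberg adjusted p = 0.730). It was 1 of the 4 genes that DESeq2 called on the recovered reads, beside Met, Nupr1 and D830030K20Rik. How far Rn45s reads reflect precursor RNA in the cells or RNA left by the selection was not tested.

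A start tract did not mark the genes with the larger differences. The 25 tested members with a tract had a median log2 fold change of -0.58 (from -0.82 to -0.16), and the 37 without one had -0.52 (from -0.98 to -0.10).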

How the data were processed

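RNA of 7 tumors was sequenced and processed by the authors with STAR 2.5.0a on mm10, counting with Rsamtools and GenomicFeatures, and DESeq2 1.20.0. The authors deposited the counts divided by size factors, a normalized signal per gene and library without correction for length; the rule for reads that match several genes is not stated. Of 19282 entries, 25 with names turned into dates (0.254% to 0.361% of reads) were left out. All values (100%) were whole reads within 0.01, with size factors of 0.647 to 1.82.

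Groups came from the labels. limma 3.58.1 (R 4.3.3; empirical Bayes with a mean trend, two-sided) used log2(normalized count + 1) of the 14782 genes whose mean was 10 or more, with Benjamini-Hochberg adjustment and a threshold of 0.05. Since whole reads were recovered, edgeR 4.0.16 (quasi-likelihood) and DESeq2 1.42.0 were run on them as alternatives, beside other pseudocounts, filters, scalings, library weights, a replicate block, removal of the length trend and leaving out each library. Scripts were tested on simulated data. Lengths and chromosomes are from GENCODE vM21 (GRCm38), which matched 85 members and 95.8% of genes; start windows are from RefSeq promoters on GRCm38.p6. No protein sequences were used here.

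Named members were the 5 of smallest p in each direction, those without overlap, the 5 highest and 3 lowest canonical genes per length, the 3 canonical genes of largest and smallest log2 fold change, all paralogs and related symbols, and genes with known roles; none was higher, so the 5 are of 1 direction only. From other lists the extremes and the highest mean were eligible. Gpc6, Xist, Fcrls, Rpl10, Rps7, Rps18, Rpl7 and the genes called by DESeq2 were named with their values in view. The members and the gene lists were chosen with earlier results of these data known. Nothing states how the tumors were spread over litters or runs, so p-values measure only the spread between these 7 samples.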

Additional observations from a re-analysis of the deposited data

Results flagged for a closer look

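In 59 quantities of the 4 GPC6 tumors (single genes and shares), an extreme tumor was looked for whose gap to the nearest of the others, as a part of the whole range, passed Dixon's 95% critical value. Chance gives about 1 in 20, here 2.95, and 2 were found. Rn45s had 154424 normalized counts in GPC6 replicate 1, with 92933 to 100566 in the other 3 GPC6 tumors. Rpl36al had 822 in GPC6 replicate 1, with 1292 to 1413 in the others.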

How the results depend on the processing

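Of 756 values of 38 named genes under the 20 alternatives, 723 kept their direction and their side of the threshold. The count of members called stayed at 0 in all but 1 alternative, and the causes of the changes below were not tested. Weights per library gave 1962 of the 14782 genes and 18 of the 83 members at an adjusted p under 0.05, all 18 lower. DESeq2 gave 4 genes. The median log2 fold change of the members stayed below 0 in all alternatives, from -0.74 to -0.32 over the fits without 1 library, with -0.48 for an equal total and -0.58 for an equal upper quartile. Over the same fits the difference in the share of reads ran from -2.75 to -1.08 percentage points, genes and members called stayed at 0, and members without overlap ran from 5 to 54. The start tract rule with a C exactly at the annotated start gave 18.8%.

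Named genes close to 0 turned positive. Rpl36a was at 0.0054 with edgeR, 0.025 with DESeq2 and with edgeR on DESeq2 size factors, 0.25 with library weights, 0.12 with the length trend removed, and ran from -0.33 to 0.17 over the fits without 1 library, with 0.031 without GPC6 replicate 2. Rps4x was at 0.19 with library weights. With the length trend removed Rpl22l1 was at 0.028, Rpl37rt at 0.042, Rpl8 at 0.031, Rps3a1 at 0.0064 and Rps4x at 0.037. Over the fits without 1 library Rps4x ran from -0.39 to 0.12, Rpl8 from -0.59 to 0.042 and Rps3a1 from -0.58 to 0.038, each above 0 without GPC6 replicate 1, Rpl22l1 from -0.41 to 0.0032 (without GPC6 replicate 3) and Rps4l from -1.18 to 0.52 (without 3xCR replicate 3).

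With the replicate number as a block the median of the members was -0.32 with 0 called. In the same fit Rpl36a was at 0.17, Rps4x at 0.12, Rpl8 at 0.042 and Rps3a1 at 0.038. GPC6 replicate 1 shares its number with no 3xCR tumor and adds nothing to the estimates of that fit. Same-numbered tumors had correlations of deviations of -0.19, 0.12 and 0.30 for numbers 2, 3 and 4, so the numbers are not shown to pair the tumors. Genes near the floor of 1.64 to 4.64 normalized counts cannot be compared between groups, and the level of any single member is limited by reads shared with near-identical copies.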
